A study of Mus musculus with 4 samples.

Results

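The acute-phase plasma proteins are secreted by the liver, and their amount in blood changes when tissue is injured or infected. The 10 genes described here were chosen by name, and all 10 were listed in the liver mRNA tables, among 8797 genes in all. They encode the pentraxins Crp and Apcs, the serum amyloid A proteins Saa1, Saa2 and Saa4, the haemoglobin binder Hp, the carriers Orm1 and Lcn2, and the inter-alpha-trypsin inhibitor heavy chains Itih3 and Itih4. A B6-allele frequency, which is the part contributed by the B6 chromosome among reads that could be assigned to either parent, was listed for 1 of the 10, Hp, and for 3632 of the 8797 genes.

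Liver mRNA was measured in 4 female F1 mice aged 5 months, each carrying a chromosome set of the laboratory strain C57BL/6 J (B6) and a set of MSM/Ms (MSM), a strain derived from Japanese wild mice. In 2 mice the mother was MSM and the father B6, and in the other 2 mice the mother was B6 and the father MSM. No treatment was named for any mouse, and parents of the pure strains were not analysed here at the mRNA level. The labels did not say whether the 2 mice of a cross were littermates, so the p-values apply to these mice only.

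Hepatocytes make the acute-phase proteins, and cytokines released by macrophages set the rate. Interleukin 6 acts through its receptor and STAT3, and interleukin 1 and tumour necrosis factor act through NF-kB and the C/EBP transcription factors. Proteins that increase in the response are called positive and those that decrease are called negative. In mice, serum amyloid A and Apcs respond strongly, whereas Crp, the classical human marker, responds weakly.

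Expression was given in FPKM, in which fragments are scaled to the transcript's length and to the library's fragments, so that levels can be set side by side between genes. Reads per gene were not in the tables and the depth behind each value is unknown. The FPKM summed over all genes lay between 529024 and 671875 in the 4 mice, and the median FPKM between 11.2 and 11.7. Values of 33 genes were listed at 0 in some mouse, none of them a member. The hepatocyte marker list had values for 5 of its 6 genes, all but Alb, the albumin gene, while 0 of 9 neutrophil and 0 of 7 lymphocyte markers were listed. The lowest mean FPKM of any listed gene was 2.50. Why a gene such as Alb is not listed is unknown, so absence does not give the level of a gene. In bulk tissue, fewer cells of a type and less RNA per cell cannot be told apart.

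The members spanned from 13.6 ± 4.96 FPKM for Lcn2 to 1404 ± 291 FPKM for Hp (mean ± SD, n = 4 mice). From high to low, the order of mean FPKM was Hp, Itih4, Crp, Orm1, Itih3, Apcs, Saa4, Saa1, Saa2 and Lcn2. The ranges over the 4 mice did not overlap for 3 of the neighbouring pairs, namely Itih4 above Crp, Itih3 above Apcs and Saa2 above Lcn2. They overlapped for the other 6 pairs, Saa1 being above Saa2 in 4 of 4 mice and the upper gene of the other pairs being above in 3 of 4. For those pairs other than Saa1 and Saa2, the order did not exceed the spread between mice.

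**Figure D1:**
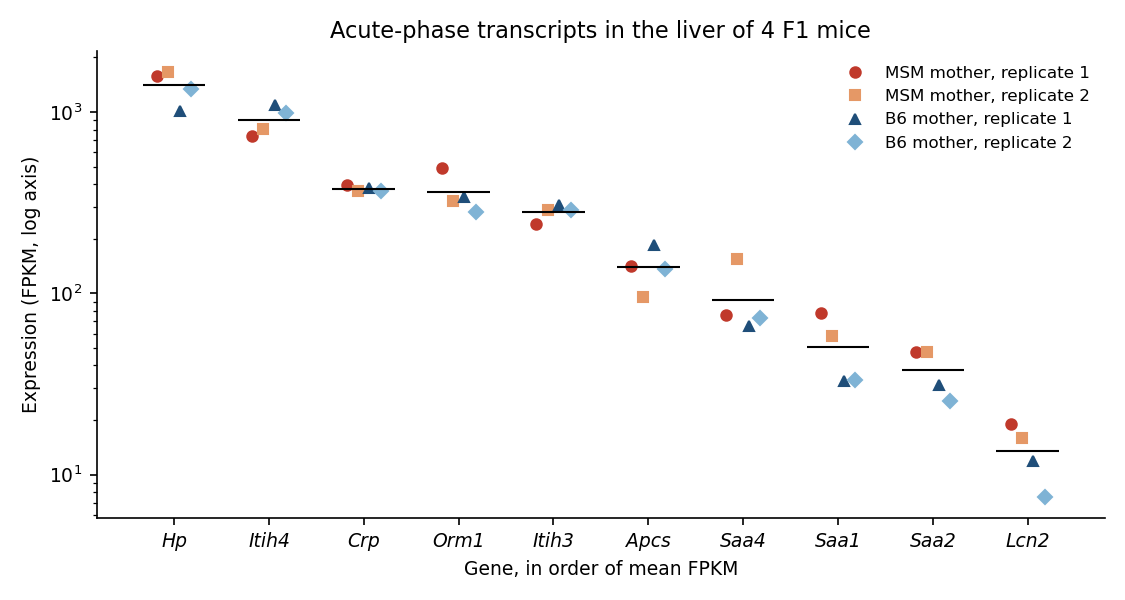
FPKM (log axis) of the 10 members in each of the 4 mice, with the symbol and colour giving the mother's strain and the replicate; the bars are means. Hp is between 1018 and 1664 FPKM, Lcn2 between 7.56 and 19.0, and the 4 symbols of Crp nearly coincide.

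With all 4 mice and the FPKM as deposited, the members that varied most were the serum amyloid A genes and Lcn2. These 4 genes were also the members with the lowest mean FPKM. Variation was described by the ratio of the highest to the lowest FPKM and by the SD of log2(FPKM + 1) over the 4 mice. The SD was largest for Saa1 (0.60), followed by Saa4 (0.55), Lcn2 (0.53), Saa2 (0.44), Apcs (0.39), Orm1 (0.34), Hp (0.32), Itih4 (0.26), Itih3 (0.15) and Crp (0.05). By the ratio, Lcn2 came before Saa1 and Saa4, at 2.51, 2.37 and 2.35. These 3 of 10 members reached a ratio of 2, which 5.30% of all genes reached. The median ratio was 1.81 over the members and 1.29 over all genes, and the median SD was 0.365 and 0.147. Crp was the least variable member under every scaling, pseudocount and left-out mouse tried. The top place was less stable. It went to Saa4 when the mice were scaled to the same sum (SD 0.614), after quantile normalization (0.591), and without replicate 1 of the MSM-mother cross (0.662) or replicate 2 of the B6-mother cross (0.651), and to Lcn2 without replicate 1 of the B6-mother cross (0.648). A single mouse carried the variation of Saa4, which was in ninth place without replicate 2 of the MSM-mother cross. The 4 leading members were also others in that fit, with equal sums, and without replicate 1 of the MSM-mother cross or replicate 2 of the B6-mother cross. Apcs was among them in the last 3 of these settings, and without replicate 2 of the B6-mother cross Hp was as well, while Lcn2 was in seventh place.

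**Figure D2:**
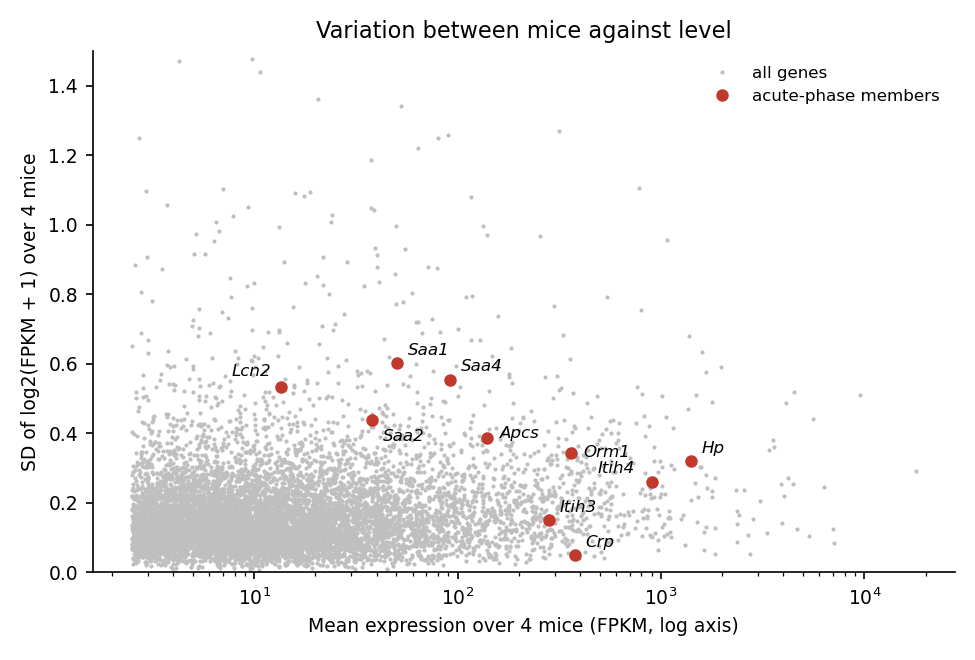
SD of log2(FPKM + 1) over the 4 mice against mean FPKM (log axis) for all genes, with the members named. Saa1, Saa4, Lcn2 and Saa2 are at 0.44 or more and Crp is at 0.05; 44 genes with an SD over 1.5 are above the axis and are not drawn.

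Saa1 and Saa2 encode the serum amyloid A proteins that travel on high-density lipoprotein and increase most in the response, and Saa4 encodes the constitutive form. The 3 genes lie in a cluster on chromosome 7 of mm10 (GRCm38). In the GENCODE M21 annotation, Saa4 occupies 46727998 to 46732603 and Saa1 46740497 to 46742980, both on the minus strand, and Saa2 occupies 46751790 to 46754313 on the plus strand. The GENCODE starts of Saa1 and Saa2 are 8.81 kb apart, pointing away from each other. Their spliced transcripts are 94.39% identical and those of Saa1 and Saa4 76.81%. The bases upstream of the starts are shown because these genes vary most among the members and differ in how alike their upstream DNA is. RefSeq sequence of GRCm38.p6 is given from base 250 to base 44 before each RefSeq start, in the direction of transcription and outside annotated exons. For Saa2 the 250 bases before the RefSeq start end at 46751832, so that start lies inside the GENCODE span. Capitals mark TTGCNNAA, the letters of a C/EBP site, on either strand.
Saa1, chr7:46743024-46743230, minus strand: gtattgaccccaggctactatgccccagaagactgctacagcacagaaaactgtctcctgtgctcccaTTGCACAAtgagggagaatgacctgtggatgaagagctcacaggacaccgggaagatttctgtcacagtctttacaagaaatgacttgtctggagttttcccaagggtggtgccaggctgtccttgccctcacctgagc
Saa2, chr7:46751583-46751789, plus strand: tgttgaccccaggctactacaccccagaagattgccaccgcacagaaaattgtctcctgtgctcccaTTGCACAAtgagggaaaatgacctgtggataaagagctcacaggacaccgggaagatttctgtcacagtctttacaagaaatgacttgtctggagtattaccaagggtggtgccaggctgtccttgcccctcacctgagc
Saa4, chr7:46732647-46732853, minus strand: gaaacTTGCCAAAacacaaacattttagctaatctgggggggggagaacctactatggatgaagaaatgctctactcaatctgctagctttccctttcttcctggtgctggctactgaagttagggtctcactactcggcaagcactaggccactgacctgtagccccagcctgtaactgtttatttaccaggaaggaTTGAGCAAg
Over the whole 250 bases, Saa1 and Saa2 are identical at 95.58% of aligned positions, whereas Saa1 and Saa4 share 62.87%. The letters stand 182 to 175 bases before the RefSeq start of Saa1 and 183 to 176 before that of Saa2, in the same flanking sequence. In Saa4 they stand at 245 to 238 and, on the opposite strand, at 52 to 45.

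Saa1 was at 77.5 and 57.8 FPKM with an MSM mother and at 32.7 and 33.4 with a B6 mother. Both mice with an MSM mother were above both with a B6 mother, and the mean was 2.05 times as high (67.7 against 33.01 FPKM). On the log2(FPKM + 1) scale the difference was 1.00 (SE 0.17) in limma, with an unadjusted p of 0.00132 and an adjusted p of 0.324. Saa2 was at 47.5463 and 47.5073 FPKM with an MSM mother and at 31.2 and 25.5 with a B6 mother. The groups did not overlap here either, the mean being 1.68 times as high with an MSM mother (log2 difference 0.73, SE 0.14, unadjusted p 0.00251, adjusted p 0.340). Within a mouse, Saa1 was 1.05 to 1.63 times Saa2.

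Saa4 followed another pattern. It was at 76.0 and 154 FPKM with an MSM mother and at 65.6 and 73.3 with a B6 mother. The high value came from replicate 2 of the MSM-mother cross, 2.03 times the other mouse of that cross, and the remaining 3 mice were within 65.6 to 76.0. The log2 difference between the crosses was 0.63 (SE 0.33, adjusted p 0.599). In the mouse where Saa1 was highest, replicate 1 of the MSM-mother cross, Saa4 was 0.981 times Saa1, and in the other 3 mice it was 2.01 to 2.66 times Saa1. Of the near-identical copies, no exact stretch of 150 bases was shared between the transcripts of Saa1, Saa2 and Saa4. The aligner was set to place each read once, so reads shorter than that could still be split between Saa1 and Saa2, and their separate levels are uncertain to that extent.

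Lcn2 encodes lipocalin 2, which withholds iron from bacteria by binding their siderophores, and it lies on chromosome 2 from 32384633 to 32388252 on the minus strand. The same C/EBP letters stand 216 to 209 bases before its RefSeq start, shown with their flanks because Lcn2 is the variable member outside the cluster. The stretch lies inside the GENCODE span of Lcn2, within an exon of a longer transcript that starts farther upstream.
Lcn2, chr2:32387937-32387966, minus strand: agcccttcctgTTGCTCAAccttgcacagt
It was at 19.0 and 15.9 FPKM with an MSM mother and at 11.8 and 7.56 with a B6 mother. The groups did not overlap, and the mean was 1.80 times as high with an MSM mother (17.4 against 9.69 FPKM, log2 difference 0.81, SE 0.21, unadjusted p 0.00941, adjusted p 0.441). As the lowest member, Lcn2 is the one whose fold change the pseudocount of 1 understates most. Neutrophils also make Lcn2, and none of the 9 neutrophil markers was listed, so the levels of these markers are unknown here.

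Hp encodes haptoglobin, which captures free haemoglobin, and it lies on chromosome 8 from 109575128 to 109579172 on the minus strand. It was at 1589 and 1664 FPKM with an MSM mother and at 1018 and 1344 with a B6 mother, so the groups did not overlap (log2 difference 0.47, SE 0.21, adjusted p 0.578). Orm1 encodes alpha-1-acid glycoprotein, a carrier of small lipophilic molecules, and lies on chromosome 4 from 63344560 to 63348163 on the plus strand. It was at 494 and 324 FPKM with an MSM mother and at 340 and 282 with a B6 mother. Its groups overlapped, with 1 mouse above the other 3 (log2 difference 0.37, SE 0.25, adjusted p 0.653). The paralogs Orm2 and Orm3, which are 90.97% and 86.53% identical to Orm1 over the transcript, were highest in that same mouse. Orm1 was 12.04 to 17.7 times Orm2 within a mouse and 9.38 to 13.5 times Orm3. The transcripts of Orm1 and its paralogs shared no exact stretch of 150 bases, but shorter reads could be split between them.

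Crp and Apcs encode the short pentraxins C-reactive protein and serum amyloid P, which bind phosphocholine and other microbial or cellular ligands. Both lie on chromosome 1, Crp from 172698055 to 172833031 on the plus strand and Apcs from 172893961 to 172895041 on the minus strand. The annotated span of Crp includes the pseudogene Gm38051 on the same strand. Crp was at 395 and 367 FPKM with an MSM mother and at 381 and 368 with a B6 mother. The 4 values lay within a ratio of 1.08, and the SD of log2 was at percentile 5.47 of all genes. The log2 difference of 0.02 (SE 0.16, adjusted p 0.972) turned sign under 3 scalings, at -0.0058 with equal medians, -0.11 with equal sums and -0.076 after quantile normalization. Apcs was at 141 and 95.5 FPKM with an MSM mother and at 184 and 136 with a B6 mother. Its groups overlapped, although the mean was lower with an MSM mother (log2 difference -0.44, SE 0.25, adjusted p 0.623). At percentile 94.1, the SD of Apcs was well above that of its neighbour, and Crp was 2.07 to 3.84 times Apcs within a mouse.

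Itih3 and Itih4 encode heavy chains of the inter-alpha-trypsin inhibitor family, some members of which attach to hyaluronan in the extracellular matrix. Their genes are neighbours on chromosome 14, Itih4 from 30886476 to 30902353 on the plus strand and Itih3 from 30908572 to 30923760 on the minus strand. Itih4 was at 736 and 802 FPKM with an MSM mother and at 1087 and 990.1 with a B6 mother. Both mice with a B6 mother were higher, with a log2 difference of -0.43 (SE 0.18, unadjusted p 0.0509, adjusted p 0.561). Itih3 was at 241 and 288 FPKM with an MSM mother and at 307 and 289 with a B6 mother. Its groups were apart by less than 1 FPKM, at 288.456 and 289.452, and its log2 difference was -0.18 (SE 0.17, adjusted p 0.727). Itih4 was 2.78 to 3.55 times Itih3 within a mouse. Itih4 and Itih3 were the members whose 2 mice with a B6 mother were both higher.

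Whether the direction of the cross changed expression was tested with limma on log2(FPKM + 1), 2 mice against 2, with adjustment over all 8797 genes at 0.05. Variance is shared over genes in limma, so an SE or p-value does not measure the gene's own spread between mice alone. None of the 10 members passed, while 0.0455% of all genes did. At an unadjusted p under 0.05 there were 3 members, Saa1, Saa2 and Lcn2, against 8.87% of all genes, and all 3 were higher with an MSM mother, as were 4.46% of all genes. Both mice with an MSM mother were above both with a B6 mother for 5 members (Saa1, Saa2, Saa4, Hp and Lcn2), against 23.0% of all genes. The reverse held for 2 members, against 19.4% of all genes. The values of Crp, Apcs and Orm1 overlapped between the crosses. The median log2 difference was 0.42 over the members and 0.02 over all genes. An exact permutation test of 2 mice against 2 cannot give a two-sided p under 0.33, and it was not used for single genes.

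**Figure D3:**
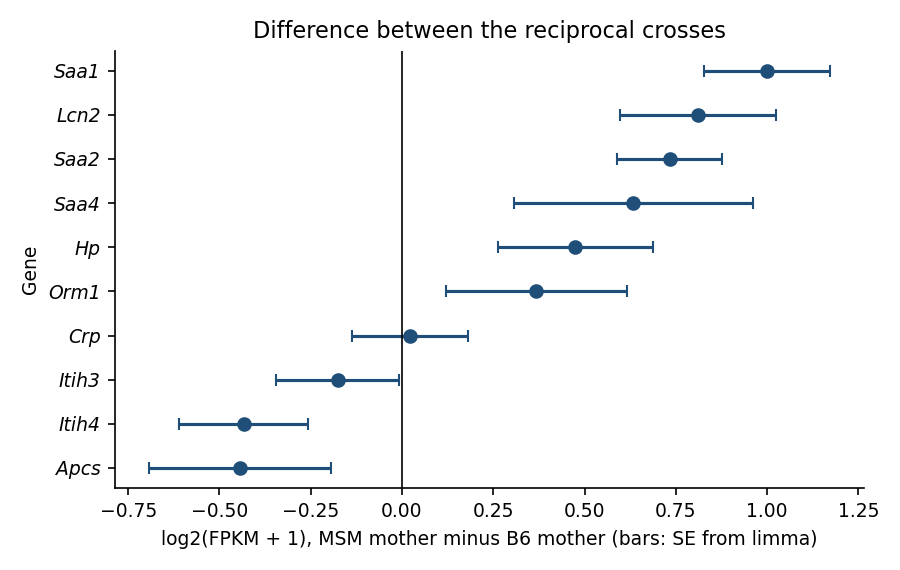
Difference in log2(FPKM + 1), MSM mother minus B6 mother, for the 10 members, with SE bars from limma (2 mice per cross, variance shared over genes). Saa1 is at 1.00, Lcn2 at 0.81 and Saa2 at 0.73, Apcs is at -0.44 and Itih4 at -0.43, and no member passed the adjusted threshold.

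The members followed more than 1 pattern over the 4 mice. Of the 10 members, 5 were highest in replicate 1 of the MSM-mother cross, 2 in replicate 2 of that cross, 3 in replicate 1 of the B6-mother cross and 0 in its replicate 2. Replicate 1 of the MSM-mother cross also had the largest FPKM summed over all genes (671875). The share of all genes that were highest in each mouse was not counted, so these counts have no background. Likeness to Saa1, the member with the largest SD, was measured as the root mean square difference of centred log2(FPKM + 1) over the 4 mice. Saa2 (0.226) was in place 51 and Lcn2 (0.245) in place 65 among all other genes, followed by Hp in place 415 and Orm1 in place 424. Apcs and Itih4 were in places 8436 and 8444. The 5 genes nearest to Saa1 were Smim24 (0.0701), Tpm2 (0.0840), Apoa4 (0.0841), Bhmt (0.0898) and Ethe1 (0.0926), of which only Apoa4, an apolipoprotein of lipid-rich lipoproteins, was on an acute-phase list used here. With 4 mice, such closeness describes these animals only.

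**Figure D4:**
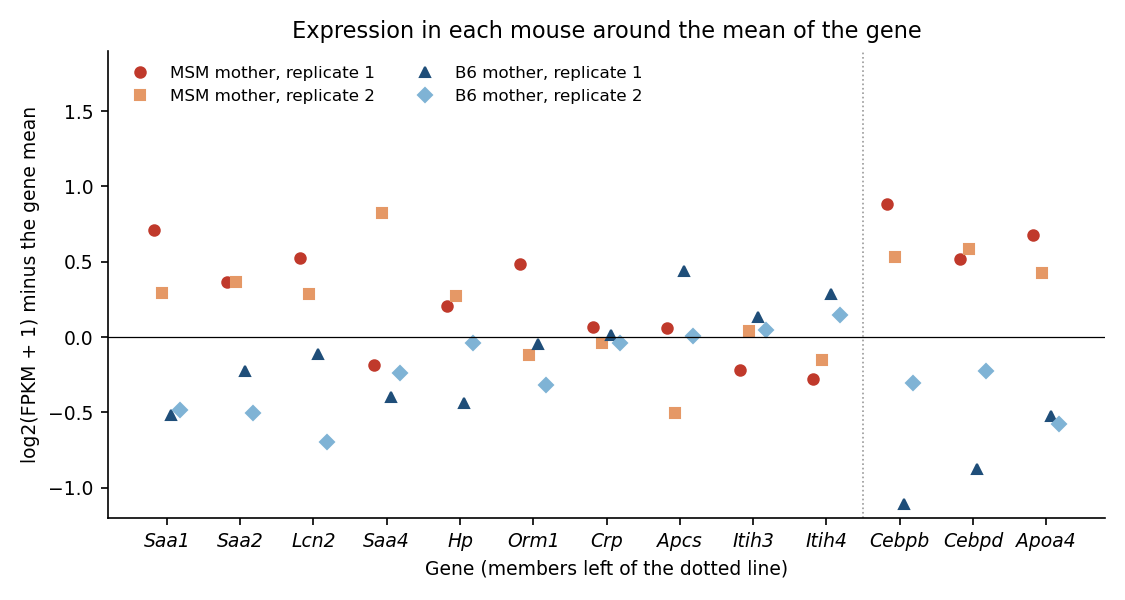
log2(FPKM + 1) of each mouse minus the mean of the gene, for the members and, right of the dotted line, Cebpb, Cebpd and Apoa4. For Saa1, Saa2, Lcn2 and these 3 genes both mice with an MSM mother are above 0 and both with a B6 mother below, and Saa4 has 1 mouse far above the other 3.

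Hp was the member in which both alleles could be followed. Its B6-allele frequency was 0.539 and 0.513 with an MSM mother and was 0.550 and 0.535 with a B6 mother, a mean of 0.534 ± 0.0156 (SD, n = 4 mice). All 4 mice were above 0.5, the value of equal alleles, and above the median of all genes, which was 0.509 to 0.512 in the 4 mice. The log2 odds of 0.20 (SE 0.05) had an unadjusted p of 0.0275 and an adjusted p of 0.0667 in limma, so that Hp did not pass, whereas 36.2% of the 3632 genes did. When genes under a mean FPKM of 10 were left out, the adjusted p of Hp was 0.048, and with the median of each mouse set to 0.5 it was 0.139. The difference of the log2 odds between the crosses was -0.10 (SE 0.11, adjusted p 0.929), and 0.0826% of the genes passed that test.

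**Figure D5:**
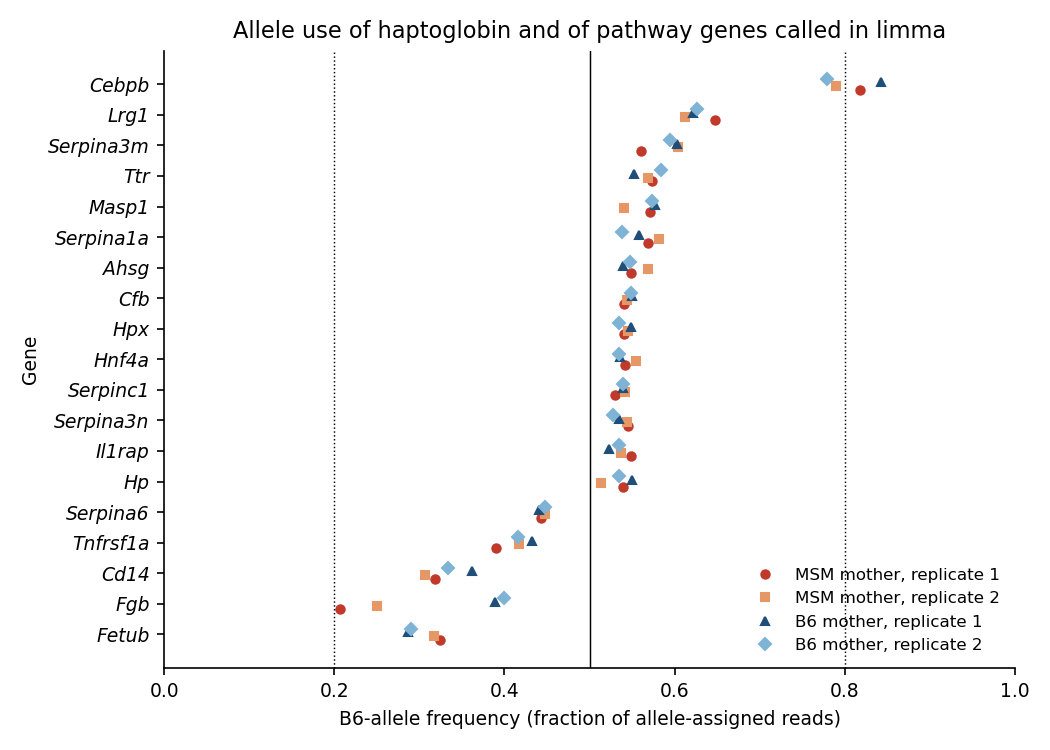
B6-allele frequency of Hp and of the genes on the acute-phase lists that passed the imbalance test, in each of the 4 mice, with the solid line at 0.5 marking equal alleles and dotted lines at 0.2 and 0.8, the limits of allele-biased expression in the methods of the study. Hp is between 0.513 and 0.550, Cebpb between 0.779 and 0.843, and Fetub and Fgb have means of 0.304 and 0.311. The 4 values of Fgb spread from 0.207 to 0.4.

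The regulators of the response were followed in a list of 27 receptors, signalling proteins and transcription factors, of which 24 were listed. None passed the test between the crosses, which 0.0455% of all genes passed. The largest ratios belonged to Cebpd (4.70), Cebpb (4.26) and Il6ra (3.43). Cebpb and Cebpd encode C/EBP beta and delta, which bind acute-phase promoters, and Il6ra encodes the interleukin 6 receptor. Cebpb was at 46.8 and 36.5 FPKM with an MSM mother and at 11.0 and 19.9 with a B6 mother (log2 difference 1.42, SE 0.28, unadjusted p 0.0026, adjusted p 0.340). Cebpd was at 3.99 and 4.23 FPKM with an MSM mother and at 0.901 and 1.99 with a B6 mother (log2 difference 1.10, SE 0.23, unadjusted p 0.00335, adjusted p 0.347). Both genes were thus higher in the mice in which Saa1, Saa2 and Lcn2 were higher, and neither difference passed. The third gene of the list with an unadjusted p under 0.05, Nfkbia, the inhibitor of NF-kB, is named after its values were seen; it was at 51.0 and 48.1 FPKM with an MSM mother and at 24.3 and 40.4 with a B6 mother. Il6ra stood out in a single mouse, at 8.99 and 30.8 FPKM with an MSM mother and at 10.01 and 12.1 with a B6 mother, and its difference turned from 0.57 to -0.27 without replicate 2 of the MSM-mother cross, the mouse in which Saa4 was also highest. Over the 24 regulators, 3 were higher in both mice with an MSM mother, against 23.0% of all genes. In both mice with a B6 mother 9 were higher, against 19.4% of all genes, and 12 overlapped.

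Of the regulators, 16 had a B6-allele frequency and 4 passed the imbalance test, 3 toward B6 and 1 toward MSM. Cebpb stood farthest from 0.5, at 0.819 and 0.790 with an MSM mother and at 0.843 and 0.779 with a B6 mother (mean 0.808 ± 0.0287, log2 odds 2.08, SE 0.13, adjusted p 0.00537). The log2 odds differed between the crosses by -0.08 (adjusted p 0.980), a difference that did not pass. The others passing were Hnf4a (0.542) and Il1rap (0.536) toward B6 and Tnfrsf1a (0.414) toward MSM. Hnf4a encodes a hepatocyte transcription factor, Il1rap the accessory chain of the interleukin 1 receptor and Tnfrsf1a a receptor of tumour necrosis factor.

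Of 33 other positive acute-phase genes, 31 were listed, 5 with a ratio of at least 2, against 5.30% of all genes. The test between the crosses was passed by 0 of them and by 0.0455% of all genes. The largest ratios were those of Hamp (3.02), Orm2 (2.57) and Il1rn (2.43). Hamp, which encodes the iron hormone hepcidin, was at 1299 and 1528 FPKM with an MSM mother and at 660 and 1995 with a B6 mother, so the 2 mice with a B6 mother held both extremes. Orm2 was at 41.1 and 21.9 FPKM with an MSM mother and at 24.3 and 15.9 with a B6 mother. Il1rn, the antagonist of the interleukin 1 receptor, lay between 1.32 and 3.21 FPKM. Saa3, a serum amyloid A gene that macrophages also express, was at 10.02 to 12.3 FPKM in all 4 mice, a ratio of 1.23, unlike Saa1, Saa2 and Saa4; it is named here for its family, after its values were seen. Of 17 genes of this list with a frequency, 7 passed toward B6 and 2 toward MSM. Lrg1 was the farthest of them toward B6 (0.627), followed by Serpina3m (0.591), Masp1 (0.565), Serpina1a (0.562), Cfb (0.546), Hpx (0.543) and Serpina3n (0.538). Fgb, the fibrinogen beta chain (0.311 ± 0.0975), and Cd14, a receptor for bacterial lipopolysaccharide (0.330 ± 0.0237), were on the MSM side. Fgb was at 0.207 and 0.25 with an MSM mother and at 0.389 and 0.4 with a B6 mother. Fractions of this kind can come from few reads. The number of allele-assigned reads behind them is unknown, so the imbalance of Fgb is uncertain.

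Of 15 negative acute-phase genes, 13 were listed, 3 with a ratio of at least 2, against 5.30% of all genes. The test between the crosses was passed by 0 of them and by 0.0455% of all genes. Thrsp, a regulator of fat synthesis, was at 126 and 204 FPKM with an MSM mother and at 55.6 and 84.5 with a B6 mother (log2 difference 1.22, SE 0.30, adjusted p 0.412). Apoa4 was at 273 and 229 FPKM with an MSM mother and at 118 and 114 with a B6 mother (log2 difference 1.10, SE 0.16, unadjusted p 5.4e-04, adjusted p 0.264), and it passed with the mice scaled to the same sum (adjusted p 0.0328). Serpina6, which encodes the corticosteroid carrier of blood, was lower with an MSM mother, at 334 and 372 FPKM against 501 and 734 (log2 difference -0.78, SE 0.23, adjusted p 0.463). Of 10 genes of this list with a frequency, 3 passed toward B6 (Ttr 0.569, Ahsg 0.551 and Serpinc1 0.538) and 2 toward MSM (Fetub 0.304 and Serpina6 0.445). Against 36.2% of all genes, 4 of 16 regulators, 9 of 17 other positive and 5 of 10 negative genes passed the imbalance test, and none of the 3 lists held a gene whose frequency passed the test between the crosses. Of these 18 genes, Cebpb, Cd14 and Fetub still passed when each mouse was left out in turn, 3 passed without some mice only (Fgb and Lrg1 not without either mouse with a B6 mother, Serpina3m only without replicate 1 of the MSM-mother cross), and 12 passed in none of these fits. With the median of each mouse set to 0.5, 5 of the 18 no longer passed, namely Hnf4a (adjusted p 0.055), Hpx (0.055), Serpina3n (0.071), Serpinc1 (0.071) and Il1rap (0.089).

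Markers of other liver cells were set beside these values. Of 8 Kupffer cell and macrophage markers, 6 were listed. All 6 were higher in both mice with a B6 mother, against 19.4% of all genes, the opposite direction to Saa1, Saa2 and Lcn2. Their summed level was 125 and 115 FPKM with an MSM mother and was 168 and 154 with a B6 mother, and none passed the adjusted test. The 6 endothelial markers summed to 115 and 108 FPKM with an MSM mother and to 124 and 129 with a B6 mother. These sums did not overlap either, and 4 of the 6 markers were higher in both mice with a B6 mother. Of 4 erythroid markers, 3 were listed, with sums of 133 and 45.2 FPKM with an MSM mother and of 159 and 51.4 with a B6 mother, most of it Hba-a1, which was high in replicate 1 of both crosses. Hbb-bs, in contrast, was at 2.13 and 3.02 FPKM with an MSM mother and at 14.3 and 23.1 with a B6 mother, so its groups did not overlap. Of 6 stellate markers, 3 were listed, with sums of 97.2 and 86.5 FPKM with an MSM mother and of 71.0 and 77.6 with a B6 mother, which did not overlap and had the direction of Saa1, Saa2 and Lcn2. Dcn, which encodes the matrix protein decorin, made up most of these sums and alone had that direction without overlap. The other listed stellate markers overlapped between the crosses. Col3a1 was at 3.03 and 6.06 FPKM with an MSM mother and at 6.47 and 3.97 with a B6 mother. Reln was at 5.25 and 6.72 FPKM against 5.84 and 6.12. Of 5 biliary markers, 1 was listed, at 9.51 to 14.6 FPKM. The part of these cells in the members' values was not tested.

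The C/EBP letters were found before the RefSeq start of 4 of the 8 members that have a promoter entry in RefSeq, namely Saa1, Saa2, Saa4 and Lcn2, and in 9.58% of the 32544 windows of 250 bases before a start. These are the 4 members with the largest SD over all 4 mice, a description of 8 windows with no test. They are also the 4 members with the lowest mean FPKM, from 13.6 for Lcn2 to 92.2 for Saa4. The part of the level was not tested. The 4 are not separate cases, since Saa1, Saa2 and Saa4 lie in 1 cluster and Saa1 and Saa2 are 95.58% identical upstream. They are not the leading 4 with equal sums or without replicate 1 or 2 of the MSM-mother cross or replicate 2 of the B6-mother cross. TTCNNNGAA, the letters of a STAT site, stood in Apcs (244 to 236 bases before the start) and Itih4 (51 to 43) and in 7.04% of all windows. GGNNTTTCC, 1 spelling of an NF-kB type site, stood in 0 of the 8 and in 4.93% of all windows. Sites of another length or spelling were not searched, so the 0 does not mean that these windows lack NF-kB sites. TATAAA stood in Crp (31 to 26) and in 12.31% of all windows. Both strands were searched, and the first 3 motifs can overlap one another. Hp and Orm1 were not in the promoter table.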

How the data were processed

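Liver polyA RNA of 4 mice was sequenced from strand-specific libraries, and each mouse's table gave FPKM and B6-allele frequency per gene. Per the labels and the study's methods, the authors aligned reads, cleaned with Trim Galore, by TopHat2 against an mm10 genome masked at strain SNPs, allowing 1 location per read, and deposited expression as FPKM. The authors divided B6 reads by all allele-assigned reads from SNPsplit and Cuffdiff to make the deposited fraction. Versions and the FPKM program are not given in the sources used here. Precision rests on the spread between mice, since read counts were not used here.

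Genes were used with a mean FPKM of at least 1, which all 8797 met. Expression was tested with limma 3.58.1 in R 4.3.3 on log2(FPKM + 1) with a variance trend. A fold change on that scale understates low genes. The frequency was tested with limma as log2 odds, limited to 0.01 to 0.99, against equal alleles and between the crosses. All were two-sided tests, adjusted by Benjamini and Hochberg's method over every gene tested at 0.05, and the code was tested on simulated data. No test on counts or on gene sets was run. Sequences were read with Python 3.11.15 and Biopython 1.88, and tables were handled with pandas 2.3.3.

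The members and lists were chosen with earlier results of these data known. A gene of the regulator list is not reported here and is left out of the counts of that list. Genes named from the regulator, positive and negative lists are those that passed a test and the 3 with the largest ratio of highest to lowest FPKM, with the 5 nearest genes to the member of largest SD. Alternatives changed the pseudocount, scaling, filter, variance model, frequency limits and scale, left out each mouse, or added the replicate number as a block. The labels do not say what the replicate numbers stand for, and they were treated as names of mice within a cross.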

Additional observations from a re-analysis of the deposited data

Results flagged for a closer look

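Values over the 4 mice were checked for a mouse far from the other 3, by the gap of the outermost value divided by the range, in 56 sets of values, of which 2 stood out. Chance gives about 1 in 20. The log2(FPKM + 1) of Fgb had a gap of 0.8616 of its range, with 2898 FPKM in replicate 1 of the MSM-mother cross and 2681 to 2710 FPKM in the other mice. The B6-allele frequency of Serpinc1 had a gap of 0.8296 of its range, with 0.530 in the same mouse and 0.540 to 0.542 in the others. None of the 10 members stood out by this measure.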

How the results depend on the processing

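With 2 mice per cross, counts of passing genes depended on single mice and on the model. Between the crosses 4 genes passed, 0 of them higher with an MSM mother; with mice scaled to the same sum 20 passed (4 higher, the median of all genes shifting by -0.12), and leaving out a mouse gave 13 to 21 (3 to 8 higher). None of the members passed in those settings; without the block, the adjusted p ranged over 0.0717 to 0.961 for Saa1, 0.235 to 0.748 for Saa2 and 0.235 to 0.780 for Lcn2. Over all genes, the deviations of mice with the same replicate number were not correlated (0.00375). A correlation over all genes cannot exclude a factor shared by same-numbered mice in some genes, so whether the numbers pair mice is unknown. With the number as a block, 285 genes passed (133 higher), among them Lcn2 (adjusted p 7.3e-04), Saa1 (8.8e-04) and Saa2 (0.0201), 3 members, and Cebpb, Cebpd, Apoa4 and Thrsp of the lists; of the 18 list genes that passed for imbalance, 6 did so with the block.

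Imbalance passed for 1316 genes, for 850 at a mean FPKM of at least 10, for 775 with the block and for 181 to 514 without a mouse. Hp was the 1 member that passed at a mean FPKM of at least 10, and its adjusted p ranged from 0.048 to 0.237. The frequency differed between the crosses for 3 genes, for 1 with limits moved to 0.001 from either end, for 1 at a mean FPKM of at least 10, and for 0 to 6 without a mouse. A ratio of 2 was reached by 466 genes and 3 members, a ratio of 1.5 by 1913 genes and 7 members, a ratio of 3 by 158 genes and 0 members. The ratio of 2 was reached by 224 genes with a pseudocount of 5, 256 at a mean FPKM of at least 10, and 280 to 399 genes and 2 to 3 members without a mouse.

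The difference of Crp changed sign with equal medians (-0.0058), equal sums (-0.11), quantile normalization (-0.076), and without replicate 1 of the MSM-mother cross (-0.031) or replicate 2 of the B6-mother cross (-0.0033), its range without a mouse being -0.031 to 0.075. Those of Hamp (-0.50 without replicate 1 of the B6-mother cross) and Il6ra (-0.27 without replicate 2 of the MSM-mother cross) changed sign too, with highest values of 1.09 and 1.40 without another mouse. The cause was not tested. Of the other values of single genes, 499 kept direction and side of the threshold, 72 were no longer past it, 9 came past it and 13 moved.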
